A study of Mus musculus with 10 samples.

Results

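The ADAM genes encode membrane proteins with a disintegrin and a metalloprotease domain. They were taken as every protein-coding gene row of the count table whose symbol is Adam followed by a digit, which leaves out the ADAMTS genes. This gave 34 genes of 55401 in the table, 21859 of which are protein-coding. By textbook knowledge of where each is used, 21 were set down as testis genes, 4 as widely expressed (Adam9, Adam10, Adam15 and Adam17) and 9 as other somatic genes (Adam7, Adam8, Adam11, Adam12, Adam19, Adam22, Adam23, Adam28 and Adam33). All libraries came from round spermatids, the haploid germ cells that follow meiosis, of adult male mice of the outbred CD1 stock. In 5 mice the testes lay in water at 42 °C for 30 minutes, and in the other 5 at 33 °C for the same time, close to scrotal temperature. Both groups were under isoflurane, woke from it woke from it and were then killed so that the cells could be isolated, and each mouse gave 1 library.

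An ADAM proteinase carries a prodomain, a metalloprotease domain with a zinc ion in its active site, a disintegrin domain that can bind integrins, and a membrane anchor. Widely expressed members such as ADAM10 and ADAM17 act as sheddases: they cut Notch receptors, TNF and growth factor precursors off the cell surface. The best studied testis members act in adhesion and in the maturation of the sperm surface. ADAM2 is the beta subunit of fertilin and pairs with ADAM1A or ADAM1B. ADAM3 is needed for sperm to bind the zona pellucida and to pass from the uterus into the oviduct, and it reaches the sperm surface only with the help of testis chaperones and partner proteins.

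Whether a testis ADAM can cut at all depends on a short run of codons in the metalloprotease domain, so this run is shown first for 10 genes that mark the groups described below. The zinc-binding site of metzincins spans 11 codons, of which 5 are fixed: 3 histidines, 1 glutamate and 1 glycine. In the lines that follow, capitals mark codons that encode the fixed residue at its place, and lower case marks all other codons. Where no site was found, the stretch that aligned with the site of the most similar member is given. Coding sequences are those of GENCODE M21 on GRCm38, 5′ to 3′ on the strand of the gene.
Adam24 (chr8:40680518-40680550, plus strand): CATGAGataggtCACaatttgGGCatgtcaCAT
Adam1b (chr5:121501937-121501969, minus strand): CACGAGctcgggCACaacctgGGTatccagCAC
Adam9 (chr8:24990326-24990358, minus strand): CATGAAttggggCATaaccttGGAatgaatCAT
Adam17 (chr12:21336732-21336764, minus strand): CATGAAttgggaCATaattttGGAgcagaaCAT
Adam29 (chr8:55872374-55872406, minus strand): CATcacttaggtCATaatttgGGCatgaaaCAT
Adam4 (chr12:81420763-81420795, minus strand): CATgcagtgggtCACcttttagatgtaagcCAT
Adam6a (chr12:113545050-113545082, plus strand): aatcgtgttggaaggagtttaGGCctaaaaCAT
Adam2 (chr14:66053841-66053873, minus strand): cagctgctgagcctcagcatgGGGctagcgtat
Adam3 (chr8:24707418-24707450, minus strand): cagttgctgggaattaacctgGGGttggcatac
Adam5 (chr8:24806449-24806481, minus strand): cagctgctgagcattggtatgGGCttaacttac

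All 5 fixed codons were present in 21 of the 34 genes. They stood in all 4 widely expressed genes and in 12 of the 21 testis genes. The 12 testis genes with the site (Adam1a, Adam1b, Adam20, Adam21, Adam24, Adam25, Adam26a, Adam26b, Adam30, Adam34, Adam34l and Adam39) each have their whole coding sequence in 1 exon. The 9 testis genes without it were of both gene structures. Adam2, Adam3, Adam5, Adam18 and Adam32 have 19 to 22 coding exons, and in Adam2, Adam3 and Adam5 only the glycine codon of the site remained. Adam4, Adam6a, Adam6b and Adam29 have 1 coding exon. Adam29 had 4 of the 5 codons and lacked the glutamate, Adam4 had 3, and Adam6a had 2. Among the other somatic genes the site was absent from Adam7, Adam11, Adam22 and Adam23.

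Depth was between 60623568 counts (42 °C replicate 2) and 117723075 counts (33 °C replicate 2) per library. Replicate 2 at 42 °C stood apart from the rest: 16.2% of its counts lay on transposable elements, against 4.62 to 9.07% in the other 9 libraries. Markers of round spermatids were high in every library, with summed levels of 1235 to 1870 CPM per kb at 42 °C and 898 to 1700 CPM per kb at 33 °C over 15 genes. A level here is the CPM value of a gene (its counts scaled to a fixed library size), with TMM-scaled library sizes, divided by the length of its exons in kb. RNA of genes listed as markers of neighbouring germ cell stages was present too. The 16 spermatocyte genes summed to 383 to 560 CPM per kb at 42 °C and 528 to 616 CPM per kb at 33 °C. The 15 genes of elongating spermatids summed to 3450 to 9973 CPM per kb at 42 °C and 2937 to 6892 CPM per kb at 33 °C. Sums over different genes do not give the share of each stage among the cells. In the library with 9973 CPM per kb, replicate 5 at 42 °C, Prm1 alone had 2723 CPM per kb. Somatic markers were far lower. Those of Sertoli cells summed to at most 7.91 CPM per kb at 42 °C and 6.13 CPM per kb at 33 °C, and those of Leydig cells to at most 5.49 CPM per kb at 42 °C and 14.4 CPM per kb at 33 °C. The sums for spermatogonia, peritubular and stromal cells, leukocytes, endothelium, erythroid cells and epididymis were at most 9.39 CPM per kb at 42 °C and 8.82 CPM per kb at 33 °C. No tested gene of any of these marker lists was called by edgeR. Many of the lowest markers were not tested: only 3 of 10 epididymis and 1 of 6 erythroid genes passed the filter. For the untested genes the test cannot show whether the groups differed. In such bulk libraries fewer cells of a type and less RNA per cell cannot be told apart.

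The testis ADAM genes spanned a wide range of levels, and their sum was far above that of the widely expressed ones. By mean level at 42 °C they ranked from 38 (Adam3) to 7435 (Adam34l) among protein-coding genes. Their summed level was 1738 ± 288 CPM per kb at 42 °C and 1839 ± 224 CPM per kb at 33 °C (SD, n = 5 each), against 10.3 ± 1.59 CPM per kb at 42 °C and 9.80 ± 2.01 CPM per kb at 33 °C for the 4 widely expressed genes. Within single libraries the testis sum was 97.9 to 227 times the widely expressed sum at 42 °C and 134 to 224 times at 33 °C. Per kb of coding sequence in place of all exons, which leaves out untranslated ends, it was 53.0 to 122 times at 42 °C and 72.1 to 120 times at 33 °C. All 34 genes together took 0.425 to 0.584% of the counts at 42 °C and 0.501 to 0.599% at 33 °C.

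Adam3 (ENSMUSG00000031553, chr8:24677225-24725852) was the most abundant member per kb of exon, level with Adam5 per kb of coding sequence. Its level was 500, 299.7, 511, 480 and 477 CPM per kb in replicates 1 to 5 at 42 °C, and 489, 553, 436, 474 and 539 CPM per kb in replicates 1 to 5 at 33 °C. Replicate 2 at 42 °C was the lowest of the 10, and the other 4 heated libraries lay within the range of the 33 °C ones. The mean ranked 38 among protein-coding genes at 42 °C and 39 at 33 °C.

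Adam5 (ENSMUSG00000031554, chr8:24727093-24824369), the nearest neighbour of Adam3 on the chromosome, followed it. It had 462, 269, 437, 415 and 424 CPM per kb at 42 °C, and 415, 486, 364, 430 and 501 CPM per kb at 33 °C. The ranges of Adam3 and Adam5 overlapped across libraries, and within each of the 10 Adam3 was 1.08 to 1.20 times Adam5 per kb of exon. This order depended on the length used: per kb of coding sequence the ratio was 0.948 to 1.06, above 1 in 5 of 10 libraries, and the mean levels were 541 CPM per kb for Adam3 and 543 CPM per kb for Adam5 at 42 °C and 594 CPM per kb for each at 33 °C. Their translated coding sequences were identical at 37.7% of aligned residues, and no stretch of 75 bases was shared between them, so reads of that length tell them apart.

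Adam32 had 278, 159, 258, 245 and 245 CPM per kb at 42 °C, and 255, 287, 220, 265 and 288 CPM per kb at 33 °C. Adam2, the fertilin beta gene (ENSMUSG00000022039, chr14:66027329-66077733), had 208, 129, 200, 158 and 171 CPM per kb at 42 °C, and 194, 220, 182, 212 and 194 CPM per kb at 33 °C. Adam2 and Adam32 did not overlap at 33 °C apart from a single Adam32 value of 220 CPM per kb, and within each library Adam32 was 1.21 to 1.55 times Adam2 per kb of exon and 1.31 to 1.68 times per kb of coding sequence. In both genes replicate 2 at 42 °C was again the lowest library.

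Adam1b, which encodes the alpha subunit of the fertilin found on sperm, had 105, 57.6, 100.4, 80 and 84 CPM per kb at 42 °C, and 103, 119, 86.3, 108 and 104 CPM per kb at 33 °C. Adam18 had 67.6, 41.4, 60.7, 53.1 and 54.3 CPM per kb at 42 °C, and 61, 70.5, 55.2, 67.3 and 64 CPM per kb at 33 °C. The groups overlapped for both, and the next gene down, Adam24, averaged 49.9 CPM per kb at 42 °C and 39.3 CPM per kb at 33 °C. The remaining testis genes averaged 2.69 (Adam34l) to 34.6 CPM per kb (Adam26a) at 42 °C and 2.45 (Adam34l) to 35.9 CPM per kb (Adam30) at 33 °C. The level of Adam1a, which encodes the other fertilin alpha and averaged 20.1 CPM per kb at 42 °C and 16.6 CPM per kb at 33 °C, is uncertain, because 63.7% of its annotated exon bases are shared with Gm42878 on the same strand. Of the 75-base stretches of Adam1b, 31.1% also occur in another ADAM gene, with Adam1a the closest, so reads may have been split between them.

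**Figure D1:**
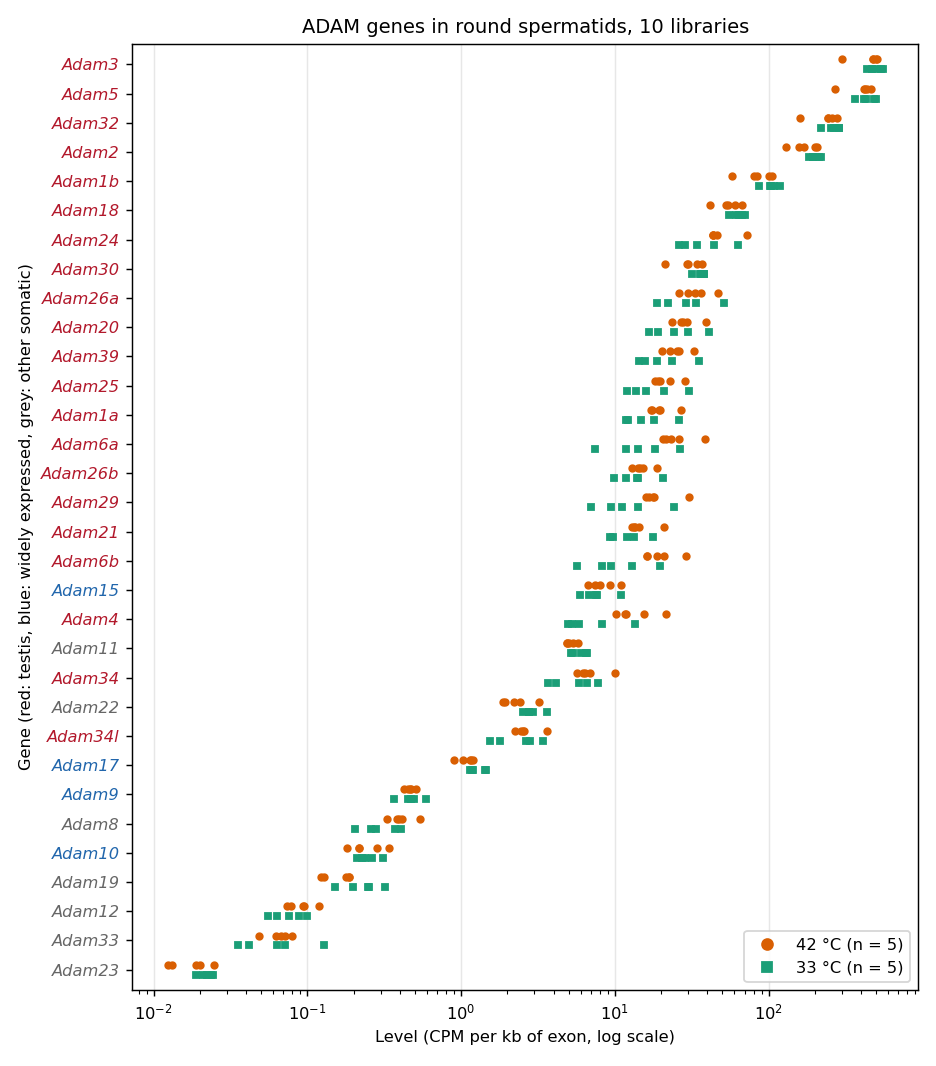
Level of each of the 32 tested ADAM genes in the 10 libraries (horizontal log axis, CPM per kb of exon; circles, 42 °C; squares, 33 °C; 1 point per mouse), ordered by the mean at 33 °C. Adam3 lies at the top with 299.7 to 511 CPM per kb at 42 °C and 436 to 553 CPM per kb at 33 °C, and of the widely expressed genes (blue) Adam15 alone lies above some testis genes.

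Most of the testis ADAM RNA came from genes without the zinc-binding site. The 9 testis genes that lack it made up 80.6% of the summed testis level at 42 °C and 82.2% at 33 °C. Within single libraries this share ran from 78.2 to 82.3% at 42 °C and from 79.2 to 84.2% at 33 °C. The 5 genes with several coding exons summed to 1321 ± 246 CPM per kb at 42 °C and 1464 ± 144 CPM per kb at 33 °C. The 12 genes with the site summed to 337 CPM per kb at 42 °C and 328 CPM per kb at 33 °C, with Adam1b as the largest contributor.

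**Figure D2:**
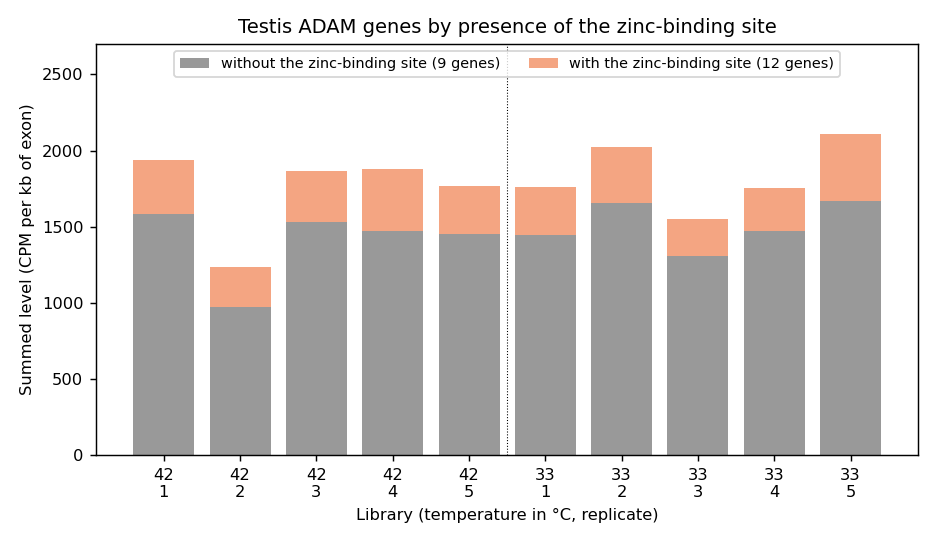
Summed level of the 21 testis ADAM genes in each library (bars from 0, CPM per kb of exon; the 5 libraries at 42 °C on the left, the 5 at 33 °C on the right), split by presence of the zinc-binding site in the coding sequence. The 9 genes without it hold 78.2 to 82.3% of the sum at 42 °C and 79.2 to 84.2% at 33 °C, and 42 °C replicate 2 has the lowest sum.

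Adam15, an adhesion and shedding protein of many epithelia and vessels, was the highest of the widely expressed genes. It had 6.67, 10.9, 7.42, 9.26 and 8.06 CPM per kb at 42 °C, and 11, 6.84, 5.89, 7.67 and 7.59 CPM per kb at 33 °C. On the opposite strand 4731419I09Rik shares 20.6% of its exon bases. Adam17, which encodes the TNF-converting enzyme, had 1.20, 1.04, 1.14, 0.902 and 1.16 CPM per kb at 42 °C, and 1.44, 1.44, 1.14, 1.19 and 1.18 CPM per kb at 33 °C. The values of the 2 temperatures overlapped for both genes.

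Adam9, a sheddase of many tissues, had 0.466, 0.454, 0.426, 0.506 and 0.476 CPM per kb at 42 °C, and 0.496, 0.471, 0.365, 0.454 and 0.592 CPM per kb at 33 °C. Adam10, which encodes the main Notch sheddase, had 0.217, 0.217, 0.182, 0.285 and 0.339 CPM per kb at 42 °C, and 0.227, 0.263, 0.312, 0.211 and 0.236 CPM per kb at 33 °C. Each of the 4 genes lay below the one named before it in every library. Of the other somatic genes Adam11, a brain member without the site, was highest, with a mean of 5.19 CPM per kb at 42 °C and 5.94 CPM per kb at 33 °C. Adam28 had 10 counts over the 5 libraries at 42 °C and 4 at 33 °C, and Adam7, a gene of the epididymis, had 1 count at 42 °C and 2 at 33 °C. These 2 genes did not pass the filter on low counts.

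On chromosome 8 a steep difference in level falls between 2 adjacent genes. Adam18, Adam3, Adam5, Adam32 and Adam9 lie side by side on the minus strand (chr8:24602246-25016927, GRCm38) with no other protein-coding gene between them. The first 4 averaged 55.4, 454, 402 and 237 CPM per kb at 42 °C and 63.6, 498, 439 and 263 CPM per kb at 33 °C. Adam9, separated from Adam32 by a gap of 806 bases, averaged 0.466 CPM per kb at 42 °C and 0.475 CPM per kb at 33 °C. On the minus strand this gap lies between the end of Adam9 and the start of Adam32, so the 2 starts are not adjacent. The ratio of Adam32 to Adam9 within a library was 351 to 604 at 42 °C and 486 to 609 at 33 °C. Chromosome 8 holds 13 of the 21 testis genes, the rest being on chromosomes 12 (4 genes), 5 (2 genes), 14 and 3.

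The sequence before the RefSeq transcription start was compared for the genes with an entry. RefSeq promoter entries (GRCm38.p6) were matched for 18 of the 34 genes by symbol, and Adam34 and Adam34l were left out because their symbols and positions conflict with the count table. No entry was found for Adam2, Adam3, Adam5, Adam18 and Adam32, the testis genes with several coding exons. The testis genes compared here all have 1 coding exon, so the windows of the most abundant testis genes were not seen. In the 250 bases before the start, the CG dinucleotide occurred 0 to 4 times in the 9 remaining testis genes, with a median of 1, and 18, 23 and 29 times in Adam15, Adam17 and Adam10. For Adam1a, Adam6b, Adam26b, Adam29, Adam10 and Adam15 the RefSeq start did not match the start of a GENCODE M21 transcript. Their windows may therefore not lie directly before a start. Long stretches are shared by the windows of Adam20 and Adam25 and by those of Adam6a and Adam6b, so the 9 are not independent. The other somatic genes spanned both, with 4, 5 and 7 in the 3 entries of Adam19, 6 in Adam8, 17 in Adam22 and 27 in Adam23. No entry of Adam19 matched a GENCODE M21 transcript start, and the entry with 5 lay apart from the annotated span of the gene. Over 32851 RefSeq promoters of the same length the median was 6, 44.4% had 4 or fewer and 21.7% had 18 or more. The window of Adam1b, the most abundant testis gene with an entry, and that of Adam17 are given, with every CG in capitals; CG reads the same on both strands.
Adam1b (chr5:121503436-121503685, minus strand): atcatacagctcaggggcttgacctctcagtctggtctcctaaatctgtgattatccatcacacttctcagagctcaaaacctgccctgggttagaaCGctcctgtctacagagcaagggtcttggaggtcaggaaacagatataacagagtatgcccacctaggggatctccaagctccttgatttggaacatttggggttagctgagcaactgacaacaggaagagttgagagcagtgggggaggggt
Adam17 (chr12:21373633-21373882, minus strand): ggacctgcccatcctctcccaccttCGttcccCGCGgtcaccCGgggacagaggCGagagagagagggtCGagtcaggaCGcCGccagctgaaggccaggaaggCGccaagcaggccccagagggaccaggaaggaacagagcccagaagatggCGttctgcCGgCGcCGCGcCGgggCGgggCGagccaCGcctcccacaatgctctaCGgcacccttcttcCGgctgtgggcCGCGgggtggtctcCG
The full cAMP response element is TGACGTCA, to which the spermatid regulator CREM binds. Searched on both strands, it was in none of the windows compared here, Adam34 and Adam34l left out, and in 1.55% of all promoters.

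The comparison of 42 °C with 33 °C addresses the response of these transcripts to a brief rise in testis temperature. No ADAM gene passed the test in either direction. Of 32 genes tested, 0 had an adjusted p under 0.05 in edgeR's quasi-likelihood test, where 0.0922% of all 26025 features were called, 0.0884% higher and 0.00384% lower. DESeq2 called 0 of the 32 as well, against 1.11% of all features (0.988% higher and 0.119% lower), and so did limma voom, against 0.588% (0.476% higher and 0.111% lower). Before adjustment 4 genes had a p under 0.05, where 11.5% of all features did. Adam4, Adam6a and Adam6b were on the higher side, which held 8.56% of all features, and Adam19 on the lower side, which held 2.94%. In none of the 32 genes were the 2 groups free of overlap, against 1.32% of all features higher and 0.680% lower without overlap.

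The 4 highest log2 fold changes belonged to the 4 genes with a single coding exon and no zinc-binding site, a grouping seen after the values. Adam4 (ENSMUSG00000072972, chr12:81419443-81421946) had 11.7, 11.7, 10.3, 21.5 and 15.4 CPM per kb at 42 °C, and 5.25, 5.86, 8.25, 4.97 and 13.5 CPM per kb at 33 °C. Replicate 5 at 33 °C lay above 3 of the heated libraries, so the groups overlapped. The fitted log2 fold change came to 0.90 (SE 0.29, edgeR adjusted p = 0.369), and its adjusted p was 0.119 in DESeq2 and 0.0506 in limma voom.

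Adam6b had 16.1, 18.9, 16.2, 29.1 and 20.7 CPM per kb at 42 °C, and 8.3, 9.46, 13, 5.66 and 19.6 CPM per kb at 33 °C. The fitted log2 fold change came to 0.85 (SE 0.29, edgeR adjusted p = 0.374; limma voom adjusted p = 0.0556). Adam6a had 20.6, 23.3, 21.6, 38.4 and 26 CPM per kb at 42 °C, and 11.9, 14.1, 18.4, 7.38 and 26.7 CPM per kb at 33 °C. The fitted log2 fold change came to 0.73 (SE 0.29, edgeR adjusted p = 0.408). The proteins of the pair are 89.8% identical and 19.7% of the 75-base stretches of Adam6a also occur in another ADAM gene, so reads may have been split between them by the authors' counting, and the 2 are not independent.

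Adam29, which lies far from that pair on chromosome 8, shares no such stretch with any member. It had 16.8, 17.9, 15.9, 30.5 and 17.9 CPM per kb at 42 °C, and 9.5, 14.1, 11.1, 6.98 and 24.1 CPM per kb at 33 °C. The fitted log2 fold change came to 0.59 (SE 0.30, edgeR adjusted p = 0.462). In each of the 4 genes the highest library was replicate 4 at 42 °C and replicate 5 at 33 °C, and that 33 °C library alone overlapped the heated ones.

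The genes with several coding exons had small negative values. The log2 fold changes were -0.13 (SE 0.15, edgeR adjusted p = 0.688) for Adam3, -0.13 (SE 0.16) for Adam5, -0.15 (SE 0.15) for Adam32, -0.21 (SE 0.14) for Adam2 and -0.20 (SE 0.13) for Adam18. The 95% intervals were -0.47 to 0.20 for Adam3, -0.47 to 0.21 for Adam5 and -0.51 to 0.09 for Adam2. Without 42 °C replicate 2, which holds the lowest value of each, the estimates were 0.01 for Adam3, 0.02 for Adam5, -0.09 for Adam2 and -0.08 for Adam18. Adam1b had -0.29 (SE 0.16, edgeR adjusted p = 0.480), and -0.15 without that library.

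The widely expressed genes had log2 fold changes between -0.23 and 0.12 in the edgeR fit. The values were 0.12 (SE 0.18, 95% interval -0.27 to 0.51) for Adam15, -0.23 (SE 0.13, -0.53 to 0.06) for Adam17, -0.03 (SE 0.16, -0.39 to 0.33) for Adam9 and -0.01 (SE 0.21, -0.47 to 0.45) for Adam10. The sign of Adam15 was negative in limma voom. Their median was -0.02, that of the 21 testis genes was 0.17 and that of all features tested was -0.01.

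Of the 21 testis genes 14 had a positive value, where 48.9% of all features had one and 51.1% a negative one. All 14 were genes with 1 coding exon, whose median was 0.25 over 16 genes, with Adam1b and Adam30 (-0.24) as the exceptions. The 14 are not all independent, since some are near copies. For Adam20, Adam25, Adam26a, Adam26b and Adam39, 21.2 to 24.5% of their 75-base stretches also occur in another ADAM gene. The median of the 5 genes with several coding exons was -0.15. The testis median rested on few libraries: leaving out replicate 2 at 42 °C gave 0.27 and leaving out replicate 4 gave 0.04. Leaving out 1 library at 33 °C gave 0.26 for replicate 2, 0.04 for replicate 3, 0.07 for replicate 4 and 0.45 for replicate 5.

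Among the other somatic genes Adam19, which is needed for heart development, had 0.186, 0.123, 0.187, 0.129 and 0.179 CPM per kb at 42 °C, and 0.247, 0.321, 0.200, 0.250 and 0.151 CPM per kb at 33 °C. The fitted log2 fold change came to -0.54 (SE 0.23, edgeR adjusted p = 0.424). Adam8, a leukocyte sheddase, had 0.381, 0.540, 0.412, 0.329 and 0.393 CPM per kb at 42 °C, and 0.404, 0.279, 0.372, 0.258 and 0.204 CPM per kb at 33 °C (log2 fold change 0.44, SE 0.22, edgeR adjusted p = 0.462). Adam22, a receptor for LGI proteins at synapses, had 1.94, 2.40, 1.89, 2.21 and 3.21 CPM per kb at 42 °C, and 2.92, 3.64, 2.53, 2.78 and 2.75 CPM per kb at 33 °C (log2 fold change -0.33, SE 0.16, edgeR adjusted p = 0.455). The groups overlapped in all 3.

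**Figure D3:**
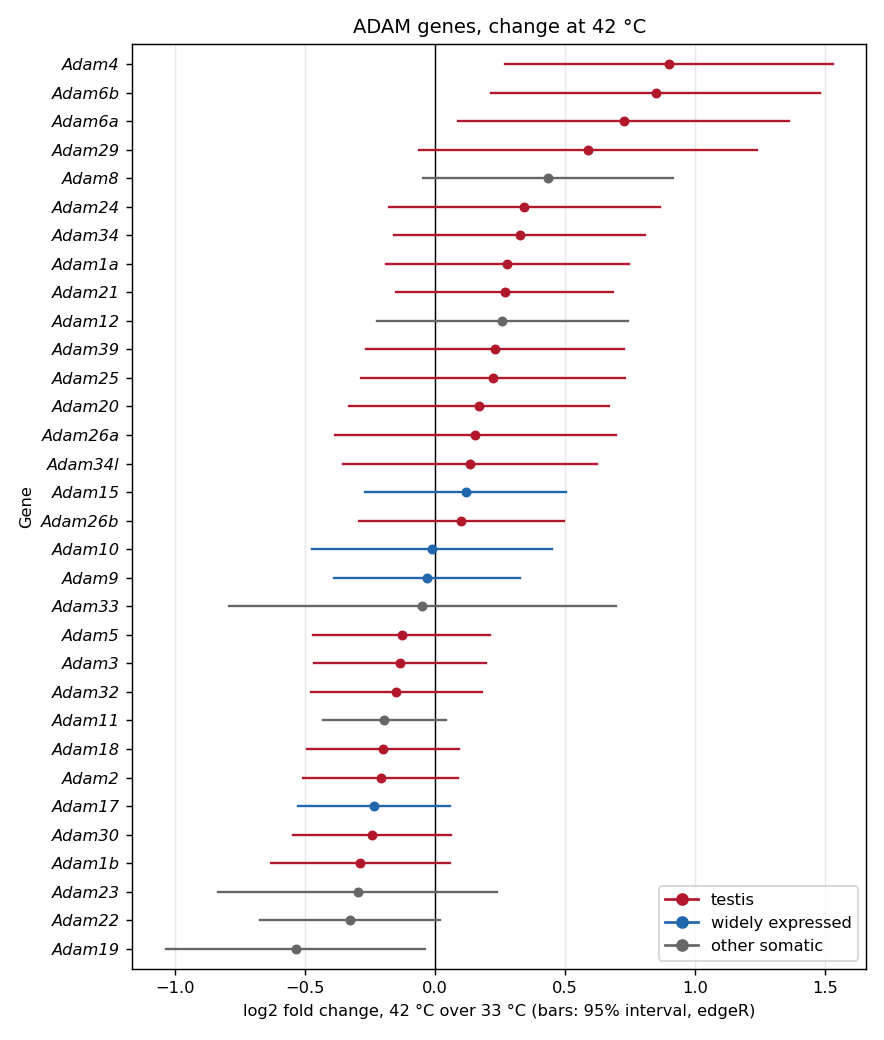
Log2 fold change of the 32 tested ADAM genes, 42 °C over 33 °C (horizontal axis; points, edgeR estimate; bars, 95% interval without adjustment for the number of genes), coloured by class and ordered by value. The intervals of Adam4, Adam6b, Adam6a and Adam19 do not include 0, and none of the 32 passed the adjusted test.

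The testis genes also varied between mice of the same temperature. All 5 genes with several coding exons were lowest in replicate 2 at 42 °C and in replicate 3 at 33 °C. Of the 16 genes with 1 coding exon, 9 were lowest in that 42 °C library and 8 in that 33 °C library. Of the same 16, 14 were highest in replicate 4 at 42 °C and in replicate 5 at 33 °C. Adam1b and Adam30 were the exceptions, being highest in replicate 1 at 42 °C and replicate 2 at 33 °C. Of the 5 genes with several coding exons, 4 were highest in replicate 1 at 42 °C and 3 in replicate 2 at 33 °C. At 42 °C the coefficients of variation overlapped, with 17.6 to 19.2% over the 5 genes with several coding exons and 14.4 to 32.3% over the 16 with 1. The values of the 5 genes rested largely on replicate 2 at 42 °C: without it they were 3.30% (Adam3) to 12.9% (Adam2). At 33 °C the coefficient of variation was 7.64 to 12.7% over the 5 genes with several coding exons, 11.4% for Adam1b, 7.22% for Adam30, and up to 50.6% (Adam29) among the other 14.

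In replicate 2 at 42 °C the genes with several coding exons were all below their 33 °C mean, and those with 1 lay on both sides. Relative to the mean at 33 °C it stood at 0.60 for Adam3, 0.61 for Adam5, 0.61 for Adam32, 0.64 for Adam2 and 0.65 for Adam18, and at 0.55 for Adam1b and 0.59 for Adam30. The other 14 genes with 1 coding exon ran from 0.849 (Adam26a) to 1.69 (Adam6b) times that mean, 6 of them below it and 8 above it. The summed level of the genes with 1 coding exon was 0.274 to 0.392 of that of the genes with several at 42 °C, and 0.211 to 0.329 at 33 °C.

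Stage markers varied between the same libraries. The summed round spermatid markers were highest in replicate 4 at 42 °C (1870 CPM per kb) and in replicate 5 at 33 °C (1700 CPM per kb), the libraries where the 14 genes were highest. Acrv1, an acrosomal gene of round spermatids, had 91.4 CPM per kb in that 42 °C library and 74.7 CPM per kb in that 33 °C library, the highest of each group. The summed spermatocyte markers were 422 CPM per kb in that 42 °C library and 529.6 CPM per kb in that 33 °C library. They were lowest in replicate 2 at 42 °C (383 CPM per kb) and in replicate 1 at 33 °C (528 CPM per kb). Replicate 2 was also the lowest 42 °C library for the genes with several coding exons. It was the lowest there for the summed round (1235 CPM per kb) and elongating spermatid markers (3450 CPM per kb) too. At 33 °C the genes with several coding exons were lowest in replicate 3, where the spermatocyte markers summed to 548 CPM per kb. The summed elongating spermatid markers were highest in other libraries, replicate 5 at 42 °C (9973 CPM per kb) and replicate 3 at 33 °C (6892 CPM per kb). None of the 15 round spermatid, 15 elongating spermatid or 16 spermatocyte markers was called by edgeR. The median log2 fold change was 0.28 for round spermatid, 0.34 for elongating spermatid and -0.16 for spermatocyte markers, beside the 0.25 of the ADAM genes with 1 coding exon. The part of the mix of stages in the ADAM values was not tested.

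**Figure D4:**
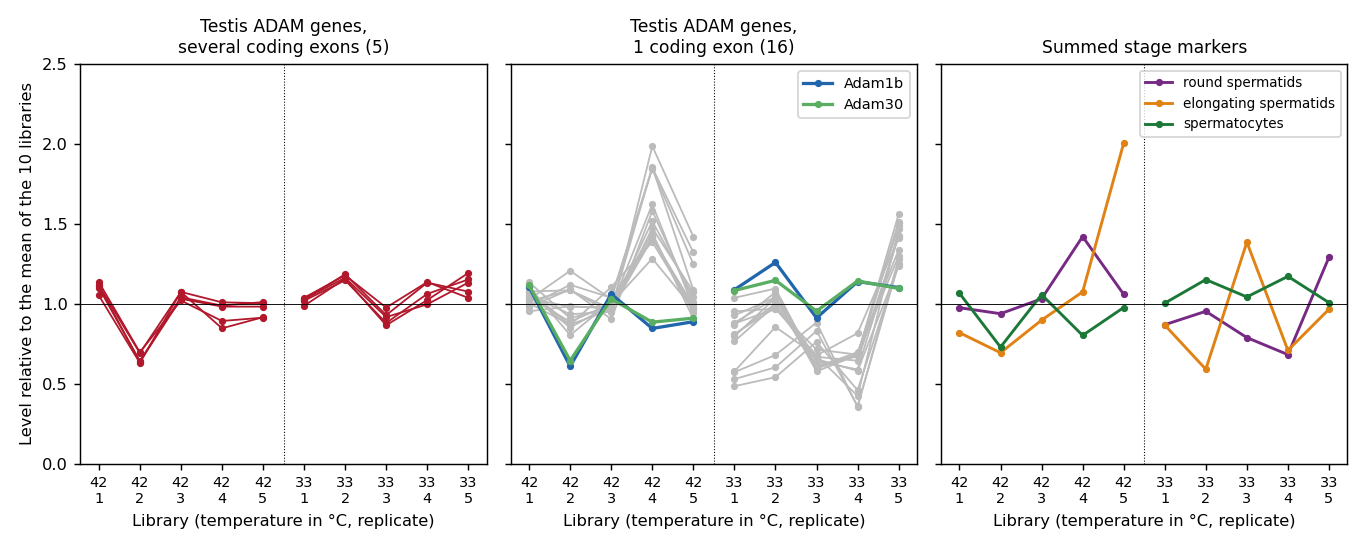
Level of each testis ADAM gene and of summed stage markers in each library, relative to its mean over the 10 libraries (vertical axis from 0; lines join libraries of 1 temperature for reading only; 42 °C left of the dotted line, 33 °C right of it). Left, the 5 genes with several coding exons, all lowest in 42 °C replicate 2; middle, the 16 genes with 1 coding exon, 14 of them (grey) highest in 42 °C replicate 4 and 33 °C replicate 5; right, markers of 3 germ cell stages.

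The genes that act with sperm ADAMs were read in the same fit. Of 17 genes for maturation of sperm ADAM proteins, 0 were called by edgeR, 9 had positive and 8 negative log2 fold changes, and the median was 0.00. Calr3, which encodes calsperin, a testis chaperone needed for ADAM3, averaged 23.4 ± 7.06 CPM per kb at 42 °C and 15.8 ± 6.05 CPM per kb at 33 °C (log2 fold change 0.57, SE 0.26, edgeR adjusted p = 0.437). Prss55, a testis serine protease on which mature ADAM3 depends, averaged 34.7 ± 12 CPM per kb at 42 °C and 22.6 ± 9.07 CPM per kb at 33 °C (log2 fold change 0.62, SE 0.29, edgeR adjusted p = 0.437). For Pmis2 the log2 fold change was 0.49 (SE 0.23), and for Canx, the general chaperone calnexin, it was -0.27 (SE 0.14).

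Of 13 genes for gamete binding and fusion in the table, 0 were called by edgeR. Spaca6, a sperm protein needed for fusion with the egg, averaged 9.12 ± 1.8 CPM per kb at 42 °C and 5.50 ± 1.20 CPM per kb at 33 °C. The fitted log2 fold change came to 0.73 (SE 0.17), with an adjusted p of 0.211 in edgeR, 0.0168 in DESeq2 and 0.0441 in limma voom, so 2 of the 3 tools called it. Izumo1, whose protein binds the egg receptor JUNO, had 0.33 (SE 0.18), the hyaluronidase gene Hyal5 0.52 (SE 0.28) and the zona-binding gene Zpbp2 -0.28 (SE 0.16), none called by any of the 3 tools.

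The partners of the widely expressed sheddases were read in the same fit. The regulators of ADAM10 and ADAM17 summed to 25.7 to 31.0 CPM per kb at 42 °C and 25.7 to 35.0 CPM per kb at 33 °C. Of 18 regulators of ADAM10 and ADAM17, 15 were tested and 0 called, with a median log2 fold change of -0.06. Frmd8, which stabilises the iRhom and ADAM17 complex, averaged 13.6 ± 2.24 CPM per kb at 42 °C and 16.5 ± 2.72 CPM per kb at 33 °C (log2 fold change -0.27, SE 0.15). The log2 fold change was 0.51 (SE 0.36) for the metalloprotease inhibitor gene Timp4, 0.66 (SE 0.52) for the iRhom gene Rhbdf1, and -0.23 (SE 0.19) for Tspan5, whose tetraspanin escorts ADAM10 to the surface, none called. Rhbdf1 was very low, with 0.0507 ± 0.0396 CPM per kb at 42 °C and 0.0310 ± 0.0162 CPM per kb at 33 °C. Without 42 °C replicate 2 its estimate was 0.19. Of 20 ADAM substrates, 15 were tested and 0 called by edgeR. Cdh1, encoding E-cadherin, averaged 0.187 ± 0.0566 CPM per kb at 42 °C and 0.0879 ± 0.0295 CPM per kb at 33 °C (log2 fold change 1.09, SE 0.28, edgeR adjusted p = 0.284; DESeq2 adjusted p = 0.0246), and Il6ra, the interleukin-6 receptor, was called by limma voom. The log2 fold change was 0.41 (SE 0.20) for the growth factor gene Egf, -0.26 (SE 0.13) for Cdh2, encoding N-cadherin, and -0.40 (SE 0.21) for the chemokine gene Cxcl16. Of 14 integrin and LGI partners of ADAMs, 12 were tested and 0 called by any of the 3 tools, and the smallest p belonged to 4 integrin alpha subunits, with log2 fold changes of 0.73 (SE 0.23) for Itga5, 0.55 (SE 0.24) for Itga6, -0.27 (SE 0.19) for Itga9 and -0.35 (SE 0.25) for Itga4. Levels were low, with means of 0.109 CPM per kb at 42 °C and 0.0655 CPM per kb at 33 °C for Itga5. Those of Itga4 were 0.0331 CPM per kb at 42 °C and 0.0419 CPM per kb at 33 °C.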

How the data were processed

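Total RNA of isolated round spermatids was depleted of ribosomal RNA and sequenced as stranded libraries, per the labels' protocols. Raw, unnormalized read counts were deposited by the authors in 1 table, for 55401 genes and 1146 transposable element (TE) subfamilies. DRAGEN, cutadapt, Trim Galore and the builds GRCm38 and mm10 appear in the submitters' processing notes, without version or role. Not given in the sources used here are the counting tool, its strand setting and how multi-mapping reads were treated, so overlapping antisense genes and near copies are uncertain.

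The main test was edgeR 4.0.16 (R 4.3.3) with its quasi-likelihood fit, group as the sole term, TMM factors over genes and TE together, filterByExpr with a minimum count of 10 and a total of 15, and Benjamini-Hochberg adjustment over all 26025 features at 0.05. DESeq2 1.42.0 and limma 3.58.1 (voom with quality weights) were alternatives, besides other scalings and filters, a replicate block and leaving out each library. The scripts were tested on simulated counts. Levels are CPM from edgeR per kb of merged exons of GENCODE M21, whose positions matched the table for 99.4% of 55141 shared identifiers. No 2 libraries of a group were alike within sampling noise (chi-square at least 15.4 per degree of freedom). Each library is 1 mouse, so the tests set the difference between groups against the variation between libraries of different mice, technical variation included. For identity and for alignment of the zinc-binding site, coding sequences were translated and aligned with Biopython 1.88.

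The genes given per library were Adam2, Adam3, Adam5, the 6 testis and 4 widely expressed genes of highest level and the 8 of smallest p; from each other list up to 4 of smallest p were named. Il6ra was added after its values were seen, and Acrv1 was named outside this rule. The members, classes and lists were chosen with earlier results of these data known. The split by coding exons was made after values were seen.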

Additional observations from a re-analysis of the deposited data

Results flagged for a closer look

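A sample far from the other 4 of its group was looked for in 74 groups of 5 values, with a gap to the nearest value above 0.71 of the group's range. Chance alone would mark about 1 group in 20, and 11 were marked, all at 42 °C. They are not independent, since the genes vary together between libraries.

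Replicate 2 at 42 °C was far below the other heated libraries for Adam3 (299.7 CPM per kb, others 477 to 511), Adam5 (269 CPM per kb, others 415 to 462) and Adam32 (159 CPM per kb, others 245 to 278). The summed testis genes (1234 CPM per kb, others 1766 to 1940) and the summed genes with several coding exons (899 CPM per kb, others 1351 to 1517) were far lower there as well. This library also had the lowest depth and 16.2% of its counts on transposable elements, and the part of either in these values was not tested.

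Replicate 4 at 42 °C was far above the others for Adam24 (72.3 CPM per kb, others 43.6 to 46.1), Adam1a (27.0 CPM per kb, others 17.1 to 19.7), Adam29 (30.5 CPM per kb, others 15.9 to 17.9), Adam21 (20.7 CPM per kb, others 13 to 14.3), Adam34 (9.97 CPM per kb, others 5.70 to 6.87) and Adam34l (3.62 CPM per kb, others 2.23 to 2.57). All 6 have 1 coding exon. The round spermatid markers summed to their highest value at 42 °C in the same library.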

How the results depend on the processing

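No ADAM gene was called under any of the 18 alternatives, the smallest adjusted p being 0.0506. The number of all features called moved: 15 higher with library totals, 73 higher and 3 lower with no filter, 2 higher and 0 lower with a mean of at least 1 CPM, 257 higher and 31 lower with DESeq2, 124 higher and 29 lower with limma voom, and 10 to 21 higher and 0 to 2 lower when single libraries were left out. With coding length, chosen after seeing the data, summed levels of testis genes were 2233 CPM per kb at 42 °C and 2363 CPM per kb at 33 °C, and those of widely expressed genes 24.4 CPM per kb at 42 °C and 23.4 CPM per kb at 33 °C. Replicate numbers appear in both groups, but libraries of the same number did not deviate together (correlations -0.41 to -0.12), and the main test did not pair them. These correlations cannot show whether mice of the same number were handled together. A replicate block gave 4 features higher and 0 lower, with no ADAM gene called. The median of the widely expressed genes lay between -0.12 (limma voom) and 0.06 (without 33 °C replicate 5).

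Of 17 genes given per library, 12 kept the sign of the log2 fold change throughout, and the 5 that did not were never called. Adam10 was 0.00666 with DESeq2 size factors, 0.00623 with DESeq2, 0.0306 with library totals, 0.0294 with TMM from gene rows, 0.0304 with no filter, 0.0190 with a mean of at least 1 CPM, and -0.150 to 0.0809 without single libraries. Adam9 was 0.0260 with library totals, 0.0149 with TMM from gene rows, 0.0130 with no filter, 0.00587 with a mean of at least 1 CPM, and -0.113 to 0.103 without single libraries. With limma voom Adam5 was 0.00959 and Adam15 -0.182. Without single libraries Adam3 was -0.183 to 0.0129 and Adam5 -0.190 to 0.0155, both highest without 42 °C replicate 2. The cause of these changes was not tested.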
